A study of Sus scrofa with 10 samples.

Results

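Genes of the meiotic chromosome axis and of meiotic recombination were followed in pig (Sus scrofa) tissue that had formed from transplanted testis cells. The set was chosen by name, 37 genes in all, and 34 of them are among the 27376 genes of the count table, while HORMAD2, PRDM9 and MLH3 were not analysed here. Polyadenylated RNA was counted with QuantSeq, a method that reads each transcript near its 3′ end, in 10 libraries that form 3 groups. The FO group (4 libraries) is graft tissue from testicular fibroblasts alone, and the GF group (4 libraries) is graft tissue from germ cells given together with testicular fibroblasts. Both kinds of graft grew in Matrigel in the dorsal skin of a mouse whose strain the labels write as SKID, and were taken after 6 months. The control group (2 libraries) is testis tissue whose titles carry the code 5D, although its cell type and growth fields repeat those of GF. The labels do not explain this code, so the age of the control testis is not known here, and age and tissue cannot be told apart. The labels give no genotype and do not say whether libraries came from separate animals, cultures or pools, so p-values measure the spread between these libraries, which may be technical. Whether RNA of the mouse host added to the graft counts was not tested. The question put to the grafts is whether germ cells change how testicular tissue is rebuilt.

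Meiosis is the pair of divisions by which germ cells make haploid gametes, and in the testis it is carried out by spermatocytes. In its long prophase each replicated chromosome is folded along a protein axis of cohesins, SYCP2, SYCP3 and HORMAD proteins, and homologous chromosomes are then joined along their length by the synaptonemal complex. Programmed DNA breaks, made by SPO11 and its partners, are repaired on the homologue with the help of the recombinase DMC1, and a few of them become crossovers. The telomeres are tied to the nuclear envelope while the homologues find each other.

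Total counts per library ranged from 2915534 to 7013911. Levels are given as counts per 1000000 counts of a library after scaling with TMM factors (CPM), and 3 counts, used as the limit for a gene with none, equal 0.452 to 1.04 CPM. CPM from 3′ ends are not divided by gene length, and levels are compared between libraries, never between genes. Because these are bulk samples, fewer cells of a type and less RNA per cell cannot be told apart. The germ cell helicase DDX4 had 0.557, 1.95, 1.68 and 0.423 CPM in FO 1 to FO 4 and 59.3, 102, 56.1 and 46.6 CPM in GF 1 to GF 4, with 20.7 and 20.8 CPM in the control libraries. DDX4 is 1 of 17 genes with values in a list of spermatogonia and early germ cells. Of 11 tested genes of this list 5 rose (45.5%) in GF versus FO, 1 fell (9.09%) and 5 did not pass (median log2 fold change 0.07). Over all genes tested in GF versus FO, 17.6% were called higher and 13% lower. The 17 genes summed to 573 to 734 CPM in FO, 791 to 895 CPM in GF and 1056 to 1069 CPM in control testis. A sum can rest on few genes. DMRT1 of this list is also in the Sertoli cell list, so the sums do not measure germ cells alone. GF 3 and GF 4 had the lowest totals, and 10 skeletal muscle genes together reached 743 CPM in FO 1 and 199 CPM in GF 3, with at most 47.2 CPM elsewhere. The counts of 13 of the 34 genes are uncertain because RefSeq (Sscrofa11.1) places another gene over them and the use of strand in counting is not given in the sources used here. Among them are SYCE1, SYCE2, SYCP2, SYCP3, SMC1B, STRA8, DMC1, PSMC3IP, TEX11 and TERB1.

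Most meiotic genes that could be tested were higher in grafts that had received germ cells than in fibroblast-only grafts. Of the 34 genes, 25 had enough counts to be tested in GF versus FO, and 17 rose, 1 fell and 7 did not pass. Over all 13782 genes tested, 17.6% were called higher and 13% lower, 30.5% in all. Every GF library stood above every FO library for 16 of the 25 genes and below for 1, against 17.8% and 18.2% of all genes tested (36% either way). By role, the genes that rose were 4 of 4 tested in the synaptonemal complex, 4 of 4 in the axis, 2 of 3 in cohesin, 1 of 1 in break formation, 4 of 6 in strand invasion and repair, 1 of 5 in crossover formation and 1 of 2 in telomere attachment. The crossover gene CCNB1IP1 fell, and no test was made between roles. The median log2 fold change of the 25 tested genes was 3.73, against -0.02 over all genes tested. A gene that is near 0 in FO passes the count filter only if it is well above 0 in GF, so these counts and medians describe the tested genes and not the whole set. The other 9 genes (TEX12, RAD21L1, STRA8, SPO11, MEI1, MEI4, DMC1, MSH4 and MAJIN) were too low to pass the count filter of this fit. With all 10 libraries in the fit 31 genes were tested, and with no filter 34. In each case 19 were called higher and 1 lower. With total counts alone as scaling the median of all genes moved to 0.13 and 69.1% of all calls were higher, against 57.5% with TMM, while 17 of the meiotic genes were called higher and 1 lower under both.

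**Figure D1:**
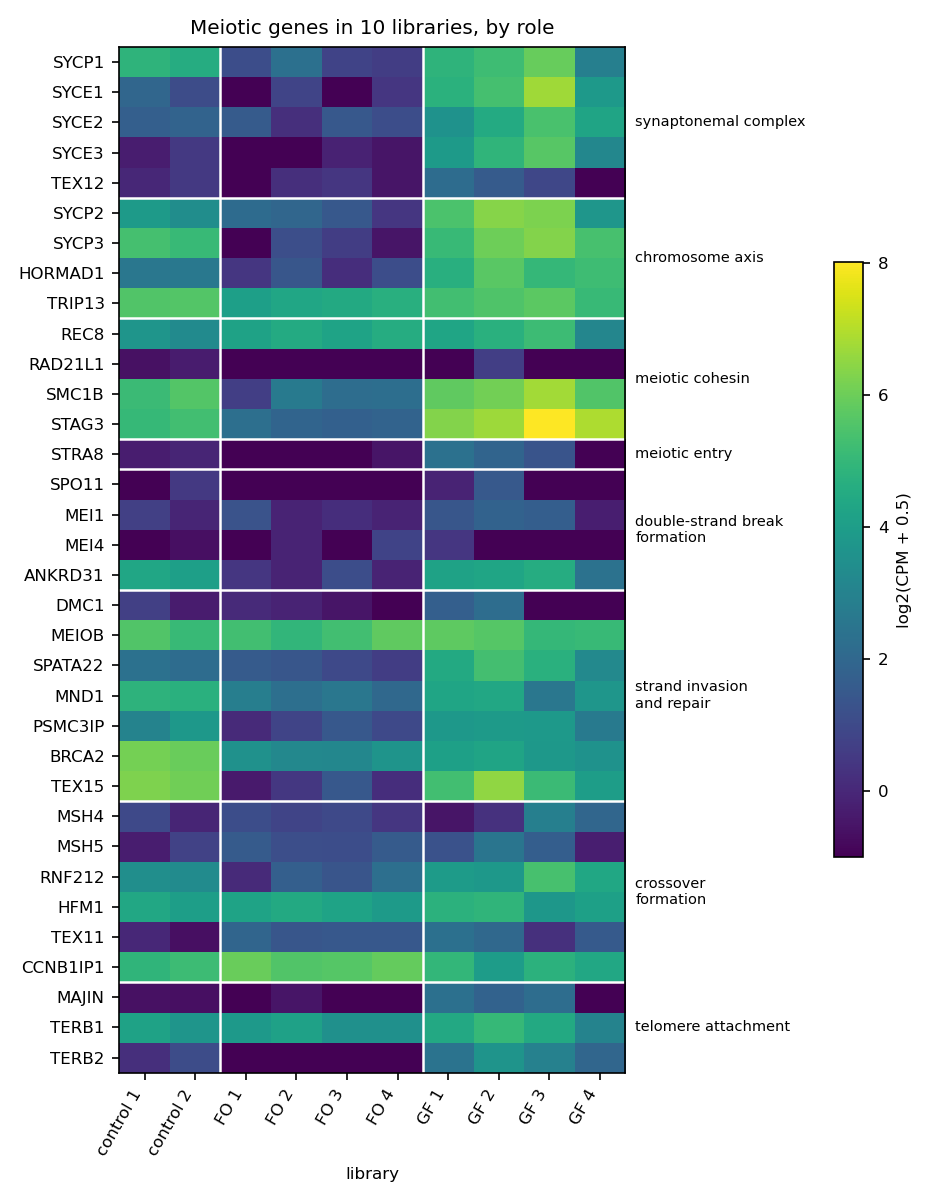
Level of the 34 genes (rows, ordered by role) in the 10 libraries (columns), as log2(CPM + 0.5) on the color scale. FO libraries are dark for most of the axis and synaptonemal complex genes, and GF 4 is the lowest GF library for 19 of the 34 genes.

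Other gene lists moved in the same libraries. Of the cell division list, which includes MKI67, TOP2A and PLK1, 13 of 17 tested genes rose in GF versus FO, and the 20 genes summed to 138 to 238 CPM in FO, 462 to 929 CPM in GF and 1789 to 1939 CPM in control testis. Of the list of round and elongating spermatids, 11 of 12 tested genes rose, and the 18 genes summed to 17.4 to 25.3 CPM in FO, 264 to 2489 CPM in GF and 9.87 to 11.9 CPM in control testis. Of the Sertoli cell list 5 of 9 tested genes rose and 1 fell, with a summed level of 4677 to 8595 CPM in FO libraries and 14729 to 45424 CPM in GF libraries. Of the fibroblast list 1 of 8 tested genes rose and 6 fell, with a summed level of 4054 to 6022 CPM in FO libraries and 1510.3 to 2722 CPM in GF libraries. Of the macrophage list 4 of 4 tested genes fell, with a summed level of 27.6 to 127 CPM in FO libraries and 4.82 to 11.6 CPM in GF libraries, and of the endothelial list 2 of 6 fell. Of markers for peritubular myoid cells and smooth muscle 4 of 7 rose, and of spermatogonia and early germ cells 5 of 11 rose and 1 fell. Of Leydig cells 2 of 8 rose (25%) and 1 fell (12.5%), near the 17.6% and 13% of all genes tested. No gene passed among 1 tested of red blood cells and 2 of skeletal muscle. The part of these lists in the values of the meiotic genes was not tested.

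Synaptonemal complex genes were near 0 in FO, and 4 of the 5 had counts in every GF library. SYCE3 (Sscrofa11.1 chromosome 5, 168908 to 201037), a small protein of the central element, had 0, 0, 0.419 and 0.212 CPM in FO, 14.5, 29.2, 51 and 8.63 CPM in GF and 0.329 and 0.905 CPM in control testis. GF lay above both other groups, with GF 3 highest and GF 4 lowest. SYCE3 rose 148-fold (95% counting interval 50.4 to 722) over FO, where it had 3 counts in all (adjusted p = 2.56e-04 by edgeR's quasi-likelihood test with Benjamini-Hochberg adjustment, as for all adjusted p-values here). SYCE1 (chromosome 14, 141726708 to 141737830), which sits beside it in the central element, had 0, 1.30, 0 and 0.846 CPM in FO, 26.3, 40.9, 106 and 14.2 CPM in GF and 3.45 and 1.66 CPM in control testis. The GF libraries spread widely, yet the lowest of them stood above every FO and control library. Its log2 fold change in GF versus FO was 6.33 ± 0.88 (SE, adjusted p = 5.06e-04). SYCP1 (chromosome 4, 105592354 to 105730413), the transverse filament that spans the gap between homologues, had 1.67, 4.56, 1.26 and 1.06 CPM in FO, 28.4, 36.6, 60.3 and 6.90 CPM in GF and 28.6 and 23.5 CPM in control testis. GF 4 came close to FO 2, and the 3 other GF libraries were near or above the control testis. SYCP1 differed between GF and FO by 3.94 ± 0.67 (SE, adjusted p = 0.00144). SYCE2, which forms the central element's long fibers with TEX12, had 2.50, 0.651, 2.30 and 1.69 CPM in FO and 11.6, 22.3, 42.7 and 18.6 CPM in GF, with no overlap, a log2 fold change of 3.73 ± 0.55 (SE, adjusted p = 7.09e-04). TEX12 itself had 8 counts over FO and 37 over GF and was not tested, and GF 4 had no count of it. Without FO 2 the log2 values of SYCP1 and SYCE1 were 4.64 and 7.16, without GF 3 that of SYCE1 was 5.53, and without FO 3 SYCE3 was 325-fold higher (95% counting interval 58.0 to 12870.0).

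The 4 axis genes, too, were higher in every GF library than in any FO library. SYCP3 (chromosome 5, 82492744 to 82501068), which compacts the axis and is the usual stain for meiotic chromosomes, had 0, 1.74, 1.05 and 0.212 CPM in FO and 33.4, 64.5, 80.9 and 41.8 CPM in GF. Control testis had 40.1 and 32.9 CPM, inside the range of GF. The log2 fold change of SYCP3 in GF versus FO was 6.10 ± 0.63 (SE, adjusted p = 1.18e-04). Its axis partner SYCP2 (chromosome 17, 59875992 to 59962314) had 3.90, 3.47, 2.30 and 0.846 CPM in FO and 43.2, 82.7, 74.4 and 12.8 CPM in GF, and differed by 4.35 ± 0.61 (SE, adjusted p = 5.24e-04). Control testis had 14.5 and 10.1 CPM of SYCP2, and GF 4 lay between these values. HORMAD1 (chromosome 4, 98447298 to 98469650), which marks chromosomes that have not yet paired, had 0.835, 2.17, 0.628 and 1.69 CPM in FO, 25.5, 51.5, 31.7 and 36.9 CPM in GF and 5.43 and 5.58 CPM in control testis. Every GF library was above both control libraries, and the difference from FO was 4.73 ± 0.45 (SE, adjusted p = 9.34e-05). TRIP13, the ATPase that removes HORMAD proteins from paired axes and that also serves the mitotic checkpoint, had 16.4, 19.5, 21.6 and 25.2 CPM in FO and 38.5, 45.9, 52.7 and 33.5 CPM in GF. Its FO and GF groups did not overlap, and the difference was the smallest of the 4 axis genes, at 1.05 ± 0.27 (SE, adjusted p = 0.0116). Control testis had 46.7 and 47.6 CPM of TRIP13. The call of TRIP13 ended without FO 1 and GF 3 (adjusted p = 0.0696) and against a fold of 1.5 (adjusted p = 0.0751), and without FO 2 the log2 value of SYCP3 was 6.86.

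**Figure D2:**
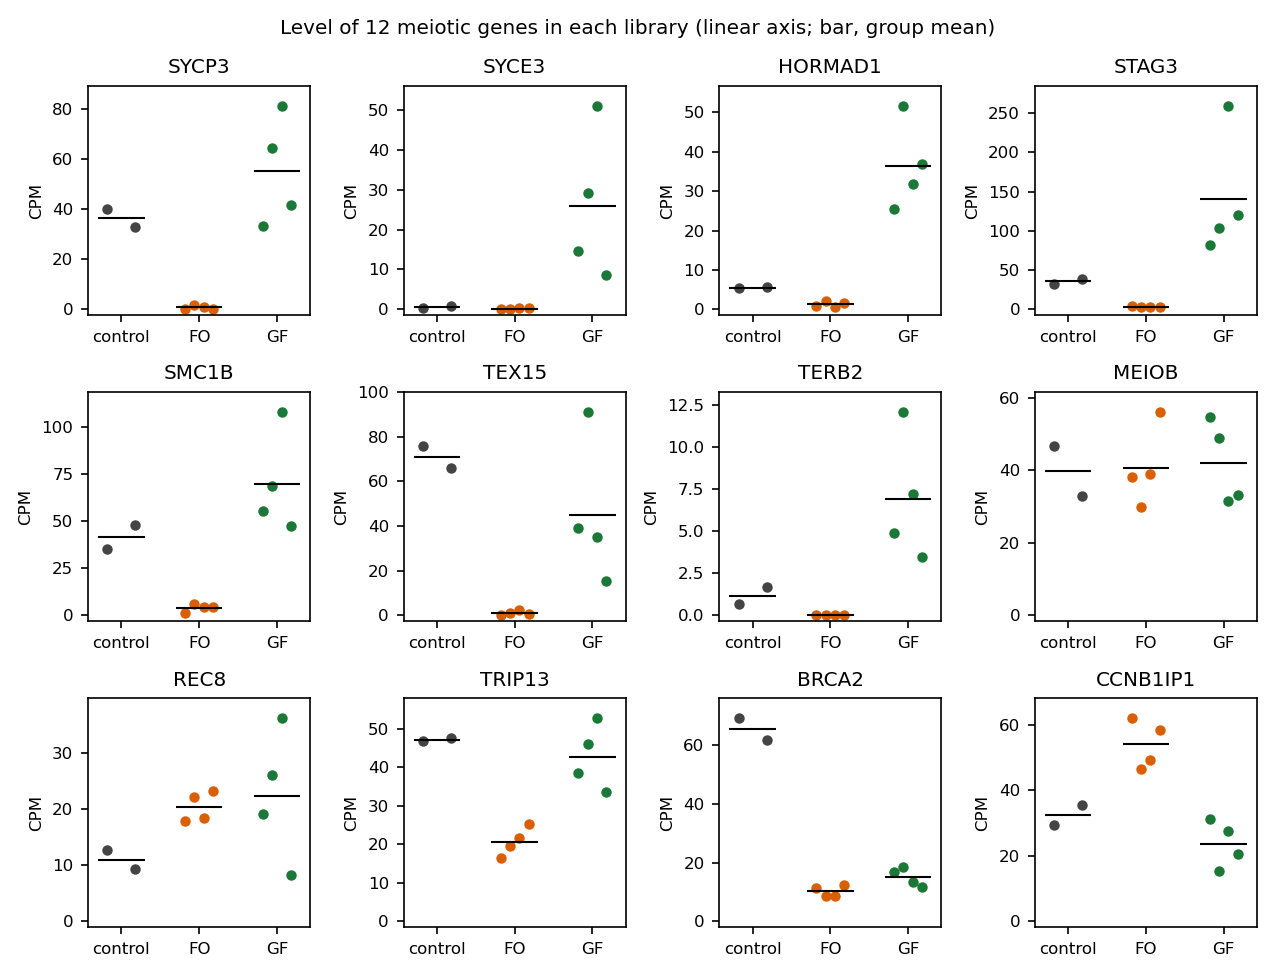
Level of 12 genes in each library, in CPM on linear axes that differ between panels, with a bar at each group mean (control n = 2, FO and GF n = 4). SYCP3, SYCE3, HORMAD1, STAG3, SMC1B, TEX15 and TERB2 lie near 0 in FO, while MEIOB and REC8 overlap between FO and GF and CCNB1IP1 is highest in FO.

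The meiotic cohesins, rings that hold sister chromatids together and form the base of the axis, split. STAG3 (chromosome 3, 8175908 to 8211898), the subunit that all meiotic cohesin rings share, had 4.45, 3.26, 2.93 and 3.17 CPM in FO, 81.5, 103, 259 and 120.1 CPM in GF and 32.7 and 38.4 CPM in control testis. GF 3 was the highest, and the lowest GF library was above both control libraries. STAG3 rose in GF versus FO by 5.36 ± 0.43 (SE, adjusted p = 5.24e-05). SMC1B (chromosome 5, 3976098 to 4067148), the meiotic form of an SMC arm of the ring, had 1.11, 5.86, 4.19 and 4.23 CPM in FO, 55.6, 68.4, 108 and 47.3 CPM in GF and 35.2 and 47.8 CPM in control testis, and rose by 4.15 ± 0.45 (SE, adjusted p = 1.43e-04). REC8 (chromosome 7, 75118743 to 75127759), the subunit that closes the ring and is cut when chromosomes part, did not follow them. It had 17.8, 22.1, 18.4 and 23.3 CPM in FO and 19, 26.1, 36.2 and 8.28 CPM in GF, and the groups overlapped, with both the highest and the lowest library in GF. The difference was 0.14 ± 0.39 (SE, adjusted p = 0.813), and it turned to -0.19 without GF 3. RAD21L1, the other meiotic closing subunit, was read only in GF 2, with 6 counts, and in the control libraries, with 3 counts.

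Of the set's genes of meiotic entry and break formation, STRA8, SPO11, MEI1 and MEI4 had at most 22 counts in any library. STRA8, the retinoic acid target that switches germ cells into meiosis, had 22, 18, 6 and 0 counts in GF 1 to GF 4, 0, 0, 0 and 1 in FO and 2 and 3 in control testis. It was 50.8-fold (95% counting interval 8.67 to 2050.0) higher in GF than in FO by pooled counts, which covers counting error only, and GF 4 held no count. SPO11, the enzyme that cuts the DNA, had 2, 13, 0 and 0 counts in GF, 0 and 6 in control testis and none in FO. Zero counts in GF 3 and GF 4 allow up to 1.03 and 1.04 CPM, so lower levels were not detectable at this depth. MEI1 had 36 counts over GF and 14 over FO, and MEI4 had 4 and 8, both of them partners of SPO11. ANKRD31 (chromosome 2, 84148363 to 84320823), which guides break formation to the chromosome ends and the paired part of the sex chromosomes, had 0.835, 0.434, 1.68 and 0.423 CPM in FO, 18, 19.3, 23.4 and 4.83 CPM in GF and 19.9 and 16.4 CPM in control testis. GF 1 to GF 3 stood at or above the level of control 2, and GF 4 was below both control libraries. ANKRD31 rose in GF versus FO by 4.23 ± 0.65 (SE, adjusted p = 8.85e-04), and by 4.84 without FO 3.

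Of 6 tested genes of strand invasion and repair, TEX15, SPATA22, PSMC3IP and MND1 rose, and MEIOB and BRCA2 did not pass. TEX15 (chromosome 15, 54210139 to 54277609), a germ cell protein needed to load the recombinases, had 0.278, 0.869, 2.30 and 0.635 CPM in FO, 38.9, 91, 35.1 and 15.5 CPM in GF and 76 and 65.9 CPM in control testis. It rose by 5.39 ± 0.66 (SE, adjusted p = 2.81e-04), and by 6.16 without FO 3 and 4.8 without GF 2. SPATA22 and MEIOB form a complex on single-stranded DNA at the breaks, and SPATA22 passed the test while MEIOB did not. SPATA22 had 2.50, 2.17, 1.47 and 1.06 CPM in FO and 22, 39.4, 26.2 and 8.97 CPM in GF and rose by 3.75 ± 0.52 (SE, adjusted p = 5.26e-04). MEIOB had 38.1, 29.97, 39 and 56.1 CPM in FO, 54.8, 49, 31.7 and 33.1 CPM in GF and 46.7 and 33 CPM in control testis. The 3 groups of MEIOB overlapped, and its difference in GF versus FO, 0.05 ± 0.28 (SE, adjusted p = 0.906), turned to a negative sign without FO 2 (-0.06), GF 1 (-0.10) or GF 2 (-0.03). PSMC3IP, which with MND1 helps the recombinases exchange strands, had 0.557, 1.30, 2.30 and 1.48 CPM in FO and 13.5, 14.6, 13.8 and 5.87 CPM in GF and rose by 3.04 ± 0.55 (SE, adjusted p = 0.00206). Control testis had 7.73 and 13.6 CPM of PSMC3IP. MND1 had 6.68, 4.34, 5.45 and 3.60 CPM in FO and 19, 20.7, 5.51 and 12.8 CPM in GF, and GF 3 lay below FO 1. Its rise of 1.54 ± 0.47 (SE, adjusted p = 0.0282) did not hold against a fold of 1.5 (adjusted p = 0.0757) or without FO 2 (0.0768), FO 3 (0.0598), FO 4 (0.077), GF 1 (0.0632) or GF 2 (0.0784). BRCA2, which loads recombinases in meiotic and dividing cells alike, had 11.4, 8.69, 8.59 and 12.3 CPM in FO and 16.9, 18.6, 13.4 and 11.7 CPM in GF, and the difference of 0.57 ± 0.34 (SE, adjusted p = 0.224) did not pass. DMC1, the recombinase found only in meiosis, had 13, 23, 0 and 0 counts in GF, 2, 2, 1 and 0 in FO and 7 and 2 in control testis, and was not tested.

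Of 5 tested crossover genes RNF212 rose (20%), CCNB1IP1 fell (20%) and 3 did not pass. These shares are near the 17.6% higher and 13% lower over all genes tested. RNF212 (chromosome 8, 393707 to 413952), a ligase that marks the sites that will cross over, had 0.557, 2.82, 2.09 and 4.44 CPM in FO, 14.8, 13.5, 41.7 and 20.02 CPM in GF and 10.5 and 9.80 CPM in control testis. It rose in GF versus FO by 3.15 ± 0.59 (SE, adjusted p = 0.00231). CCNB1IP1 (chromosome 7, 78553680 to 78576057), also named HEI10, a ligase that acts against RNF212 and that is present outside the germ line too, had 62.1, 46.5, 49.2 and 58.6 CPM in FO and 31.2, 15.3, 27.6 and 20.7 CPM in GF, with no overlap, a log2 fold change of -1.19 ± 0.28 (SE, adjusted p = 0.00784). RefSeq lists the pig CCNB1IP1 locus as a long noncoding RNA, so its counts need not stand for a protein. HFM1, a helicase of the crossover path, had 18.4, 21.7, 18.4 and 14.6 CPM in FO and 27.2, 29.4, 13.1 and 16.9 CPM in GF and differed by 0.25 ± 0.33 (SE, adjusted p = 0.591). The mismatch repair relative MSH5 (37 counts over FO and 47 over GF) and TEX11 (44 and 50), a germ cell protein of the crossover complexes that lies on the X chromosome (chromosome X, 56543933 to 56925104), did not pass, with log2 values of 0.32 ± 0.71 (SE, adjusted p = 0.762) and 0.18 ± 0.63 (SE, adjusted p = 0.851), and that of TEX11 was -0.14 without GF 1. MSH4, the partner of MSH5, had 1, 4, 20 and 10 counts in GF and 6, 6, 7 and 4 in FO and was not tested.

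Of the 3 proteins that tie telomeres to the nuclear envelope, TERB2 and MAJIN were nearly absent from FO and TERB1 was not. TERB2 (chromosome 1, 126738520 to 126767948) had no count in the FO libraries, 4.92, 12.1, 7.23 and 3.45 CPM in GF and 0.658 and 1.66 CPM in control testis. With 3 counts set as the limit over the 4 FO libraries together, TERB2 was at least 44.5-fold higher in GF (adjusted p = 0.00127). MAJIN, which is anchored in the envelope, had 21, 17, 12 and 0 counts in GF, 0, 1, 0 and 0 in FO and 1 and 1 in control testis, a pooled ratio of GF to FO of 55.2-fold (95% counting interval 9.47 to 2224), and was not tested. TERB1, which binds the telomere protein TRF1, had 14.2 and 17.4 CPM in FO 1 and FO 2, 11 CPM in FO 3 and FO 4, and 21.4, 32.6, 22 and 7.59 CPM in GF. The groups overlapped, with GF 4 below every FO library, and the difference of 0.65 ± 0.41 (SE, adjusted p = 0.252) passed without GF 4 (0.94, adjusted p = 0.0377) and without GF 3 and GF 4 (1.01, adjusted p = 0.0144).

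The set was also read by its level in FO. TRIP13, REC8, MEIOB, BRCA2, HFM1, CCNB1IP1 and TERB1 averaged at least 10 CPM in FO, a limit chosen after the values were seen, and of these 7 genes 1 rose, 1 fell and 5 did not pass. Of the 27 genes under that limit 9 were not tested, 16 rose and 2 (MSH5 and TEX11) did not pass. The genes low in FO passed the count filter mainly through GF and the level in FO enters the fold change, so nothing is read from the contrast.

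**Figure D3:**
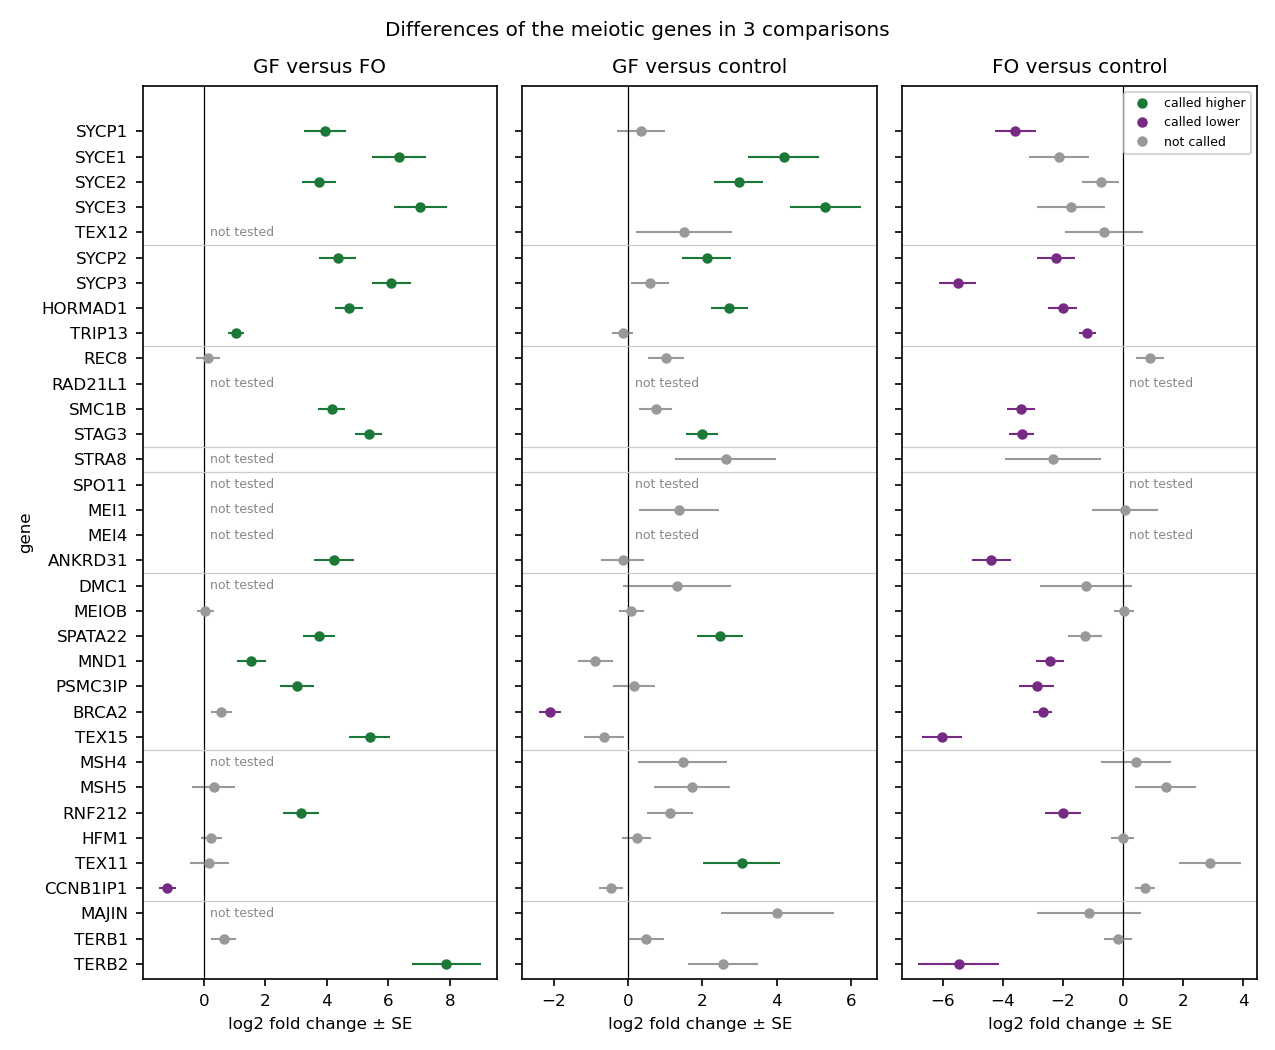
Log2 fold change with its standard error for each gene in the 3 comparisons, colored by call (adjusted p under 0.05), with genes too low to be tested written as such. The fitted values of TERB2, SYCE3, STRA8 and MAJIN can rest on 0 to 3 counts in the lower group and depend on the prior count, and CCNB1IP1 is the gene called lower in GF versus FO.

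The GF grafts were then set beside control testis, a comparison that shares its GF libraries with the comparison above. Of 31 genes tested in a fit of all 10 libraries, 8 were higher in GF, 1 was lower and 22 did not pass. Over all 15877 genes tested, 14% were called higher and 11.8% lower (25.8% in all), and the median log2 fold change was 1.31 for the 31 genes and 0.03 over all genes. SYCE1 (4.19 ± 0.95 SE, adjusted p = 0.00631), SYCE2 (2.98) and SYCE3 (5.31 ± 0.96 SE, adjusted p = 0.00167), all of the central element, were higher in GF, as were HORMAD1 (2.72 ± 0.50 SE, adjusted p = 0.00185), SYCP2 (2.12), STAG3 (1.98), SPATA22 (2.48) and TEX11 (3.06). SYCP1, whose product joins these central element proteins to the axis, did not pass, at 0.34 ± 0.64 (SE, adjusted p = 0.729), nor did SYCP3, at 0.59 ± 0.52 (SE, adjusted p = 0.428). SYCP1 turned to -0.12 without GF 3. All GF libraries lay above both control libraries for 9 of the 31 genes, RNF212 and TERB2 among them, and below for BRCA2 and MND1, against 21.9% and 25.3% of all genes tested (47.2% either way).

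BRCA2 was the gene that was lower in GF than in control testis. It had 69.1 and 61.8 CPM in control testis, and the highest GF library had 18.6 CPM, a log2 fold change of -2.10 ± 0.31 (SE, adjusted p = 4.47e-04). MND1 had 28.1 and 25.9 CPM in control testis, above every GF library, but its difference of -0.88 ± 0.47 (SE, adjusted p = 0.184) did not pass. TEX15 (-0.64 ± 0.55 SE, adjusted p = 0.411), TRIP13 (-0.15 ± 0.29 SE, adjusted p = 0.745) and ANKRD31 (-0.15 ± 0.58 SE, adjusted p = 0.877) did not pass either. Of the cell division list 8 of 20 tested genes fell in the same comparison, as did 5 of 8 of the Leydig list and 8 of 8 of the macrophage list, while 16 of 17 spermatid genes rose. Over all genes tested there, 11.8% were called lower and 14% higher. The part of these lists in the values of BRCA2 and the other genes was not tested. MAJIN had 2 counts over the control libraries and was 19.8-fold (95% counting interval 5.21 to 168) higher in GF by pooled counts (adjusted p = 0.0673), and TERB2 (2.55 ± 0.94 SE, adjusted p = 0.0700), STRA8 (2.63 ± 1.36 SE, adjusted p = 0.171) and REC8 (1.02 ± 0.48 SE, adjusted p = 0.134) did not pass. TERB2 passed with DESeq2 (2.61, adjusted p = 0.0205).

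Single libraries weighed heavily here. Without control 1 or control 2 the number of genes called higher was 2 in each case, with the lone control library assumed to vary like the other groups. Calls of SYCE1 (adjusted p = 0.0531 and 0.103), SYCE2 (0.077 and 0.0742), SYCP2 (0.139 and 0.241), STAG3 (0.0745 and 0.0595), SPATA22 (0.0919 and 0.123) and TEX11 (0.149 and 0.33) ended without control 1 and without control 2. SYCE3 was then 76.5-fold higher without control 2 (95% counting interval 21.0 to 633) and TEX11 20.7-fold higher without control 1 (3.55 to 833) and 6.32-fold higher without control 2 (2.04 to 31.7). SYCP2 also lost its call without GF 2 (0.0658), GF 3 (0.0528) or both FO 1 and GF 3 (0.0735), and SYCE1 moved to 3.39 without GF 3. The call of TEX11 ended without any of FO 1 to FO 4, GF 1 or GF 2 (adjusted p = 0.0616 to 0.0724). Without GF 4 the number called higher was 12, with MAJIN (0.00998), REC8 (0.0172), TERB2 (0.0331) and STRA8 (0.0380) added, and without GF 3 and GF 4 it was 13. SYCE3, HORMAD1 and BRCA2 kept their calls in all 22 alternatives run.

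Fibroblast-only grafts were lower than control testis in 14 meiotic genes, among them all 4 axis genes. Of the other genes among 31 tested in the fit of all 10 libraries, 17 did not pass and 0 were higher by edgeR. At an unadjusted p under 0.05, 2 were higher, and DESeq2 called 1 higher (TEX11). An edgeR fit of the FO and control libraries alone called 3 higher. It called 6600 genes in all, against 2972 in the fit of all 10 libraries. Over all 15877 genes tested in the fit of all 10 libraries, 10.6% were called lower and 8.12% higher (18.7% in all). The median log2 fold change there was -1.74 for the 31 genes and -0.04 over all genes. The largest differences among genes with more than 3 counts in FO were those of TEX15 (-6.03 ± 0.66 SE, adjusted p = 6.02e-05) and SYCP3 (-5.50 ± 0.61 SE, adjusted p = 6.73e-05). ANKRD31 (-4.38), SYCP1 (-3.59), SMC1B (-3.40), STAG3 (-3.37), PSMC3IP (-2.87), BRCA2 (-2.68), MND1 (-2.43), SYCP2 (-2.23), HORMAD1 (-2.01), RNF212 (-2.00) and TRIP13 (-1.19) were also lower. TERB2, with no count in FO and 15 in control testis, was at least 6.96-fold lower (adjusted p = 0.0172). SYCE1, SYCE2 and SYCE3 did not pass (adjusted p = 0.160, 0.451 and 0.324), and the control libraries themselves had no more than 3.45 CPM of any of them. In the same comparison 18 of 20 cell division genes fell (median log2 fold change -3.24), as did 7 of 14 genes of spermatogonia and early germ cells, 7 of 8 of Leydig cells and 5 of 8 of macrophages. The part of these lists in the values of the 14 genes, TRIP13, BRCA2 and MND1 among them, was not tested.

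Genes that did not pass and whose FO and control libraries overlapped included MEIOB (0.03 ± 0.34 SE, adjusted p = 0.965), HFM1 (-0.02 ± 0.38 SE, adjusted p = 0.987) and TERB1 (-0.17 ± 0.48 SE, adjusted p = 0.850). The values of MEIOB, HFM1 and TERB1 changed sign under at least 1 alternative. REC8 (0.89 ± 0.48 SE, adjusted p = 0.224), CCNB1IP1 (0.73 ± 0.33 SE, adjusted p = 0.142) and TEX11 (2.89 ± 1.03 SE, adjusted p = 0.0679) did not pass, and passed in a fit of the FO and control libraries alone (adjusted p = 0.0117, 0.0078 and 0.00719). These 3 genes and MSH5 were higher in every FO library than in both control libraries, and 18 of the 31 genes were lower in every FO library, against 26.8% and 31.9% of all genes tested (58.7% either way). TEX11 also passed without GF 3 (0.025) or GF 4 (0.0415). Without control 1 or control 2 the number called lower was 10 and 8. HORMAD1 (0.0707 and 0.0874), TRIP13 (0.0888 and 0.107), SYCP2 (0.173 and 0.0851) and RNF212 (0.167 and 0.155) lost their calls without either control library, and PSMC3IP (0.0875) and TERB2 (at least 3.88-fold lower, 0.137) lost theirs without control 2. SYCP2 lost its call without FO 3 (0.0615) or FO 4 (0.064) and RNF212 without FO 1 (0.0731), FO 2 (0.0703) or FO 3 (0.0846). Without FO 2 the log2 values of SYCP1 and SYCP3 were -4.29 and -6.26, and without FO 3 those of ANKRD31 and TEX15 were -4.98 and -6.79.

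The summed level of the set spread more widely over the GF libraries than over the FO libraries. The 34 genes summed to 686, 956, 1184 and 517 CPM in GF 1 to GF 4, against 204 to 234 CPM in FO and 559.6 and 523 CPM in the control libraries. GF 3 had the highest level of 4 of the 5 synaptonemal complex genes and 3 of the 4 cohesin genes. GF 2 had the highest level of 6 of the 7 genes of strand invasion and repair, and GF 1 that of STRA8. GF 4 had the highest level of none of the 34 genes and no count of 7 of them, beside 4 in GF 3 and 1 each in GF 1 and GF 2. GF 3 and GF 4 had lower totals than GF 1 and GF 2, and the part of depth in these zero counts was not tested.

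The order of the GF libraries was not the same for the summed level of every role group. Synaptonemal complex genes summed to 84.9, 131, 262 and 48.3 CPM in GF 1 to GF 4 and cohesin genes to 156, 199, 403 and 176 CPM. Genes of strand invasion and repair summed to 168, 237, 126 and 88 CPM, so that GF 3, the highest for the complex, stood below GF 1 and GF 2 for repair. Break formation genes, mostly ANKRD31, summed to 21.4, 24.7, 26.2 and 5.18 CPM. DMC1 and SPO11 were read in GF 1 and GF 2 and had no count in GF 3 and GF 4. Spermatid markers in the same libraries summed to 264, 1231, 2489 and 496 CPM, lowest in GF 1 and highest in GF 3. A sum can rest on few genes, as with STAG3, which made up 259 of the 403 CPM of cohesin in GF 3. These are values of single libraries, no test was made between them, and no order by step of meiosis is read from them.

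**Figure D4:**
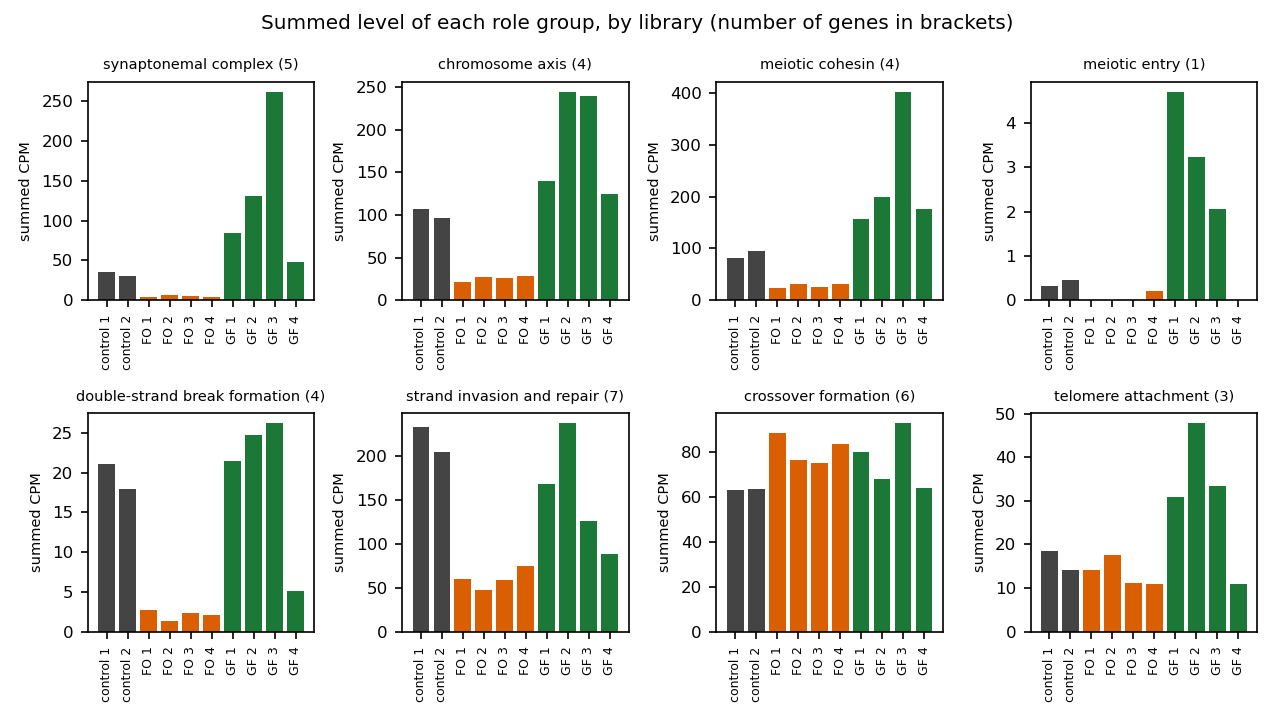
Summed CPM of each role group in each library (bars from 0, axes differ between panels; gray control, orange FO, green GF), with the number of genes in brackets. Synaptonemal complex and cohesin genes peak in GF 3, strand invasion genes in GF 2, and the crossover group shows no gap between FO and GF.

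Partners of these genes in the same pathway, 78 genes in 6 lists written by hand, were read in the same way. Of 63 tested in GF versus FO, 24 rose, 3 fell and 36 did not pass, against 17.6% and 13% of all genes, and their median log2 fold change was 0.54. Of the list of meiotic entry and the prophase programme, 5 of 8 tested genes rose. BRDT, a bromodomain protein of spermatocytes, had 84 ± 46.2 CPM (mean ± SD, n = 4) in GF libraries. It rose 500.3-fold (95% counting interval 171 to 2429) over FO. MEIOC, which holds germ cells in meiosis, rose 70.7-fold (95% counting interval 19.2 to 589.9), TEX14, of the bridges between germ cells, rose by 4.22 on the log2 scale, and the RNA-binding protein RBM46 by 3.39. Against control testis, which had no count of MEIOC, MEIOC was at least 33.8-fold higher, with 3 counts set as the limit over both libraries.

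Partners of the axis and of telomere movement included 4 genes that rose (50%) and 1 that fell (12.5%) among 8 tested. Over all genes tested, 17.6% were called higher and 13% lower, so the share lower was near that of all genes. FKBP6, of the synaptonemal complex and of small RNA pathways, rose 217-fold (95% counting interval 59.7 to 1798). KASH5, which links telomeres to the dynein motor, rose by 6.68, and SPDYA, the CDK2 activator at telomeres, by 4.73, with 4 and 6 counts over FO. The centromere guard SGO2 rose by 2.11, and SMC3, a cohesin arm of all cells and named after its value was seen, fell (-0.75, adjusted p = 0.0204). Of the partners of break formation 4 of 6 tested rose (66.7%) and 0 fell, against the same shares of all genes. They were IHO1 (3.75) and REC114 (2.89), which assemble the break machinery on the axis, and the histone readers ZCWPW1 (2.77) and CXXC1 (1.54).

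Of 20 tested strand invasion partners 5 rose (25%) and 2 fell (10%), near the 17.6% and 13% of all genes. They included RAD54L (3.52), a DNA motor protein of repair, and HSF2BP (1.53), the germ cell partner of BRCA2, which rose, and RPA3 (-1.49), a subunit that coats single-stranded DNA in all cells, which fell. Of 9 tested crossover partners 3 rose (33.3%) and 0 fell, against 17.6% and 13% of all genes. CNTD1, a cyclin-like protein needed for crossovers, rose by 4.54, SPO16 by 4.24 and the nuclease EXO1 by 1.46. Of 12 tested genes of the sex body and checkpoint 3 rose (25%), SCML2 (1.38), RAD9A (1.48) and CHEK2 (1.32), and 0 fell. The share of checkpoint genes higher is near the 17.6% of all genes. In GF versus control 12 of 74 tested partners were higher (16.2%) and 5 lower (6.76%), against 14% and 11.8% of all genes, so the share higher was near that of all genes. In FO versus control 2 were higher (2.70%) and 18 lower (24.3%), against 8.12% and 10.6%.

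**Figure D5:**
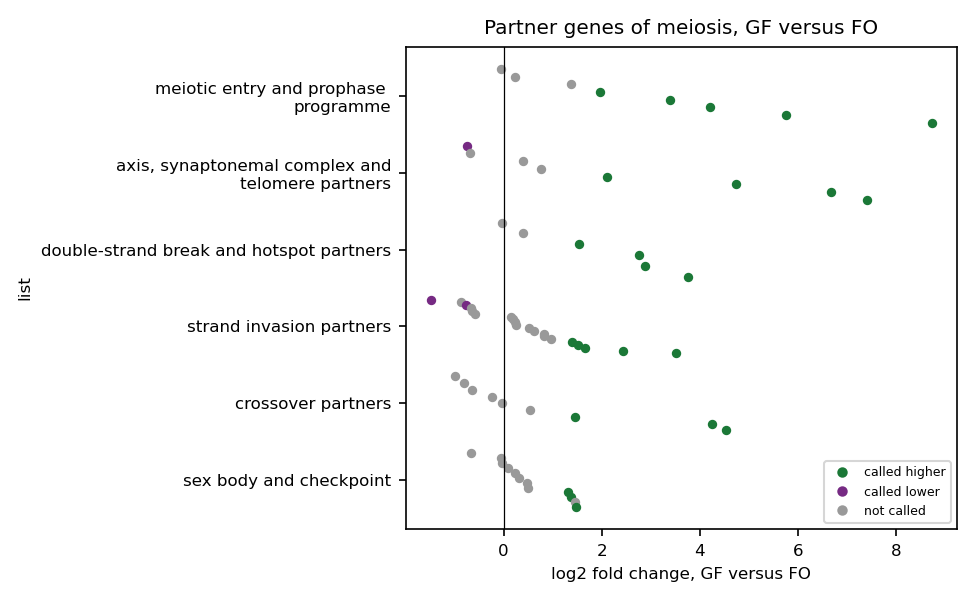
Log2 fold change in GF versus FO of each tested partner gene (points, colored by call), by list. Calls above 4 on the log2 scale lie in the entry, axis and crossover lists, and the checkpoint list stays under 1.5.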

How the data were processed

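The deposited table gives raw read counts for each gene symbol in 1 column a library, per the file headers. Libraries were made with a QuantSeq 3′ kit, per the labels' protocols. Sscrofa11.1 and DESeq2 1.42.0 are listed, with their use unstated, per the submitters' processing notes. Aligner, counter and strand setting: not given in the sources used here. Columns were matched to titles by letters and number, with F taken as FO.

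Genes were filtered with filterByExpr (minimum count 10), scaled with TMM and tested with edgeR 4.0.16 (quasi-likelihood, robust, R 4.3.3). Benjamini-Hochberg adjustment ran over all genes tested, and genes under 0.05 were called. The 8 graft libraries alone entered the GF versus FO fit, and a joint fit of all 10 gave both comparisons with control testis. Where a group held no count of a gene, its fold is a bound computed with 3 counts for the group. Where it held 1 to 3 counts, pooled counts give a ratio with an exact 95% interval for counting error only. The script was tested on simulated data.

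The genes and lists were chosen with earlier results of these data known, so no set test was made. All 34 genes are named, with library values for those of lowest p in each role and for those called in FO versus control, and up to 4 partners of lowest p in each list. Loci come from RefSeq (Sscrofa11.1), in which all 34 names matched. 6 partners were found under pig names of the same open reading frames. Alternatives were DESeq2, RLE factors, total counts, no filter, a minimum count of 20, a replicate block, other libraries in the fit, no robust estimation, a fold of 1.5 and leaving out each library. Chosen after seeing the data were fits without the shallowest pair (GF 3, GF 4), fits without the pair highest in muscle genes (FO 1, GF 3), and thinning to the lowest total. A separate sequencing batch is not named in the labels.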

Additional observations from a re-analysis of the deposited data

Results flagged for a closer look

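In 7 of 65 gene and group pairs checked, 1 library stood apart from the other 3 of its group by more than Dixon's limit. Chance passes this limit in about 1 of 20 groups of normally spread values. That rate does not hold for counts near 0, so the 7 of 65 cannot be set against it. In 4 of them the other 3 libraries had no count, and such a pair passes the limit whatever its 1 value is. RAD21L1 had 1.08 CPM in GF 2, MEI4 had 0.856 CPM in GF 1, STRA8 had 0.212 CPM in FO 4 and MAJIN had 0.217 CPM in FO 2, and the last 2 values are 1 count each. MEI1, a break formation gene, had 1.95 CPM in FO 1 against 0.423 to 0.628 CPM in the other FO libraries. TEX11 had 3.34 CPM in FO 1 against 2.17 to 2.33 CPM in the other FO libraries. PSMC3IP, the strand exchange cofactor, was the gene marked for a low library, with 5.87 CPM in GF 4 against 13.5 to 14.6 CPM in GF 1 to GF 3.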

How the results depend on the processing

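The 34 genes kept their counts of calls in GF versus FO within 15 to 22 higher and 1 lower in all 20 alternatives run, and 16 of the 18 called genes were called in each in which they were tested. Replicate numbers were not taken as pairs. Same-numbered FO and GF libraries correlated in their deviations from group means at 0.055, 0.218, 0.076 and 0.103, and differently numbered ones at -0.148 to 0.108. FO 2 and FO 4 correlated best with the GF library of their own number, FO 1 with GF 2 (0.073) and FO 3 with GF 4 (0.108). These values do not settle whether the numbers mark pairs. With the replicate number as a block, 16 of the genes were higher in GF versus FO and 1 was lower, 7 were higher in GF versus control and 14 lower in FO versus control. MND1 in GF versus FO then had an adjusted p of 0.0541 by edgeR and TEX11 in GF versus control one of 0.0597. The number of partners lower in GF versus FO was 3, and it was 1 with total counts, 1 against a fold of 1.5 and 0 without FO 1 and GF 3. Leaving out 1 library at a time moved, in GF versus FO, partners lower from 0 to 5. Log2 values that changed sign in GF versus FO, all of genes not called, were TEX11 -0.004 with the replicate block and REC8 -0.25 without FO 1 and GF 3, and, over libraries left out in turn, MEIOB from -0.10 to 0.26, TEX11 from -0.14 to 0.47 and REC8 from -0.19 to 0.42. The number of partners higher in GF versus control was 12, and it was 6 with only the libraries compared. The number of genes of the set higher in GF versus control was 8, and it was 13 without GF 3 and GF 4. The number of partners lower in GF versus control was 5, and it was 8 without GF 3 and GF 4. Leaving out 1 library at a time moved, in GF versus control, genes of the set higher from 2 to 12, partners higher from 2 to 13 and partners lower from 1 to 8. Log2 values that changed sign in GF versus control, all of genes not called, were ANKRD31 0.024 without GF 3 and GF 4, SYCP1 -0.12 without FO 1 and GF 3 and TRIP13 0.093 after thinning, and, over libraries left out in turn, PSMC3IP from -0.20 to 0.61, MEIOB from -0.17 to 0.34, SYCP1 from -0.12 to 0.68 and ANKRD31 from -0.37 to 0.16. The number of genes of the set higher in FO versus control was 0, and it was 1 with DESeq2, 3 with only the libraries compared and 3 without GF 3 and GF 4. The number of partners higher in FO versus control was 2, and it was 4 with DESeq2, 1 with total counts, 6 with only the libraries compared, 0 against a fold of 1.5 and 6 without GF 3 and GF 4. The number of partners lower in FO versus control was 18, and it was 29 with only the libraries compared and 29 without GF 3 and GF 4. The median log2 fold change of the tested genes in FO versus control was -1.74, and it was -1.87 with DESeq2, -1.89 with no filter, -2.12 with a minimum count of 20, -1.58 with the replicate block, -1.96 with only the libraries compared, -1.84 without GF 3 and GF 4 and -1.64 without FO 1 and GF 3. Leaving out 1 library at a time moved, in FO versus control, partners higher from 0 to 3, genes of the set lower from 8 to 14, partners lower from 9 to 23, the median of the tested genes from -2.04 to -1.63 and genes of the set higher from 0 to 1. Log2 values that changed sign in FO versus control, all of genes not called, were HFM1 0.0074 with DESeq2, HFM1 0.0072 with RLE factors, MEI1 -0.037 with total counts, MEIOB -0.028 with total counts, DMC1 0.022 with the replicate block, MSH4 -0.0495 with the replicate block, HFM1 0.28 with the replicate block, TERB1 0.18 with the replicate block, HFM1 0.015 with only the libraries compared, HFM1 0.011 without GF 3 and GF 4, MEI1 -0.63 without FO 1 and GF 3, HFM1 0.015 without FO 1 and GF 3, SYCE2 0.0096 after thinning and HFM1 0.019 after thinning, and, over libraries left out in turn, HFM1 from -0.20 to 0.15, TERB1 from -0.42 to 0.11, MEI1 from -0.66 to 0.84, MEIOB from -0.21 to 0.29 and MSH4 from -0.18 to 1.47. Apart from the cases named in the report, calls ended with other settings for SYCP2 in GF versus control (adjusted p = 0.0762 with only the libraries compared and 0.0575 against a fold of 1.5), for TEX11 there (0.0724 with no filter, 0.143 with only the libraries compared, 0.0675 against a fold of 1.5 and 0.148 after thinning), and in FO versus control for SYCP2 (0.0526), TRIP13 (0.0608) and RNF212 (0.0744) against a fold of 1.5 and for HORMAD1 (0.0526), RNF212 (0.0842) and TERB2 (0.136) after thinning. The cause of these changes was not tested. A count of 0 in GF 3 or GF 4 allows levels up to 1.03 and 1.04 CPM.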

Other observations

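Set against DDX4, a germ cell gene chosen after its values were seen, 8 meiotic genes, also picked by hand, gave these ratios within each library. The ratio of BRCA2 to DDX4 was 3.33 and 2.97 in the control libraries and 0.285, 0.182, 0.239 and 0.252 in GF 1 to GF 4. The ratio of TEX15 to DDX4 was 3.67 and 3.17 in control testis and 0.657, 0.892, 0.626 and 0.333 in GF. The ratio of MND1 to DDX4 was 1.36 and 1.25 in control testis and 0.321, 0.203, 0.0982 and 0.274 in GF, and that of SYCP3 was 1.94 and 1.58 in control testis and 0.563, 0.633, 1.44 and 0.896 in GF. For these 4 genes every control library lay above every GF library. The central element gene SYCE3 went the other way, with 0.0159 and 0.0435 in control testis and 0.245, 0.286, 0.908 and 0.185 in GF. HORMAD1 had 0.262 and 0.268 in control testis and 0.430, 0.505, 0.564 and 0.793 in GF. For SYCE3 and HORMAD1 every GF library lay above both control libraries. For SMC1B the groups overlapped, at 1.70 and 2.30 in control testis and 0.939, 0.671, 1.92 and 1.01 in GF. For STAG3 they also overlapped, at 1.58 and 1.85 in control testis and 1.38, 1.01, 4.61 and 2.58 in GF. These are ratios of levels within a library, described without a test, and they show unequal change and not which gene changed.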
